A study of Danio rerio with 12 samples.

Results

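A set of 9 gene identifiers of the 32520 in the deposited tables, were followed across sorted zebrafish gill and intestine cells because they encode regulators of the pharyngeal endoderm and of chemosensory cells. The rule listed 8 names, among them pou2f3, pax9, gata3, tbx1, eya1 and the identifiers ENSDARG00000073814 and ENSDARG00000030125, and kept every identifier that shares a listed symbol. The gene name table calls those identifiers PAX1 and SOX7. A second identifier called PAX1, not itself listed, is given below among further genes. Symbols are printed as that table spells them, with many zebrafish genes in capitals. The members were chosen for their level in gill GFP cells, so every comparison that includes those cells is given below as a description without a test. Of the 9 identifiers, 5 passed the filter on low counts (pou2f3, PAX1, GATA3, PAX9 and SOX7) and 4 did not, TBX1 and EYA1 among them.

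The gill grows from the pharyngeal arches, whose pouches form when pharyngeal endoderm folds outwards to meet the ectoderm. Paired-box factors (Pax1, Pax9), the T-box factor Tbx1 and the coactivator Eya1 are known to act in the forming pouches and in the glands that arise from them. Pou2f3 is the POU-domain factor that mouse tuft cells and some taste cells require. Those are rare epithelial cells that sense chemicals through a Trpm5 channel and signal to immune cells. GATA3 is best known as a factor of T cells and type 2 innate lymphoid cells, and it also acts in several epithelia. SOX7 belongs with SOX17 and SOX18 to the SoxF group, known from endoderm and blood vessels.

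All fish, in all 4 groups, were adults that carried both sox17:CreERT2 and the reporter mpeg1:loxP-DsRedx-loxP-GFP. In this line a Cre recombinase that tamoxifen switches on is made where sox17, a gene of early endoderm, is active, and Cre turns the mpeg1-driven reporter from red (DsRedx) to green (GFP) for good. The series description calls GFP cells metaphocytes, which are macrophage-like cells of non-hematopoietic origin, and calls DsRedx cells macrophages. The 4 groups were gill GFP, gill DsRedx, intestine GFP and intestine DsRedx, with n = 3 libraries each. Each library was amplified by SMART-seq2 from 30 to 50 sorted cells, and the labels say neither whether the replicates came from separate fish nor how tamoxifen was given. The p-values therefore measure the spread between these libraries, which may be technical.

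The libraries held 5895669 to 12365233 counts. Of the identifiers with the symbol of the reporter's promoter gene, MPEG1 (ENSDARG00000055290) and MPEG1 (ENSDARG00000043093) had counts in all 12 libraries. The level of the first was 351 ± 107 CPM (counts scaled by edgeR to its TMM-adjusted library size; SD, n = 3) in gill GFP and 1540 ± 1050 CPM in gill DsRedx. The other was nearly absent in gill GFP, with 1, 2 and 7 counts against 171, 1441 and 499 in gill DsRedx. The leukocyte gene ptprc had 10 to 20 counts in the gill GFP libraries against 2556 to 3076 in gill DsRedx, and the epithelial adhesion gene epcam had 3138 to 13693 against 74 to 250. SOX17, whose promoter drives the Cre, had 1, 0 and 0 counts in the gill GFP libraries. In intestine GFP it had 1, 47 and 552.

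The genes pou2f3, PAX1 (ENSDARG00000073814), GATA3 and PAX9 were abundant in the gill GFP libraries and at or near 0 in both intestine groups. SOX7 was abundant in gill GFP and present at a lower level in intestine GFP. TBX1 and EYA1 were absent or nearly so in gill GFP. For each of the 5 filtered members, all 3 gill GFP libraries lay above all 9 others, a pattern that 2.7% of the 10666 tested genes showed, and nothing is read from this share because the members were chosen on these values. In samples of many cells, fewer cells expressing a gene and less RNA per cell cannot be told apart.

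**Figure D1:**
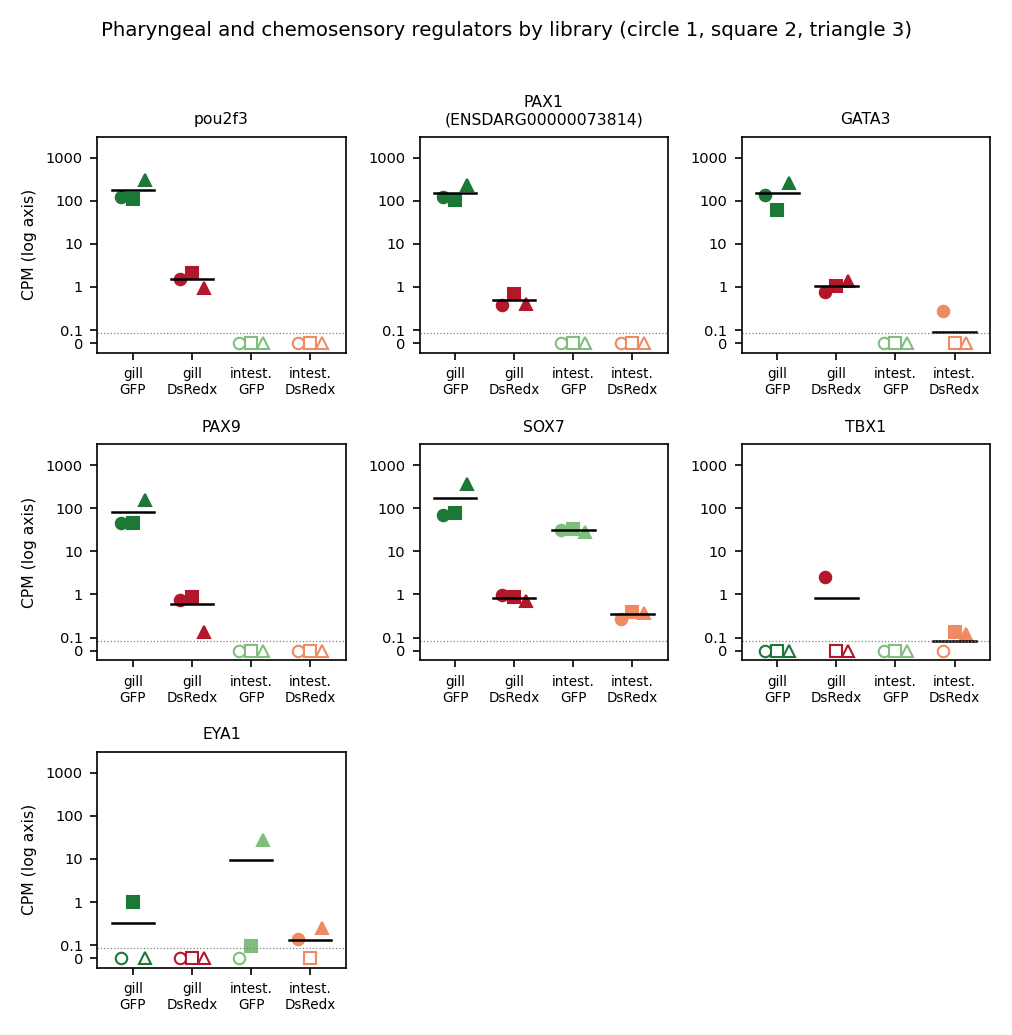
CPM of pou2f3, PAX1, GATA3, PAX9, SOX7, TBX1 and EYA1 in each of the 12 libraries on a log axis, with symbols for libraries 1 to 3 of each group and a black line at the group mean. Open symbols below the dotted line are libraries with no count. The 5 filtered members are high in the 3 gill GFP libraries, between 46.4 and 363 CPM, and SOX7 alone is also high in intestine GFP.

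The tuft cell factor gene pou2f3 had 1162, 770 and 1899 counts in gill GFP libraries 1, 2 and 3, or 123, 109 and 295 CPM. The gill DsRedx libraries had 8, 12 and 7 counts, and no count was found in any of the 6 intestine libraries. Gill GFP therefore stood apart from every other library, with library 3 the highest. The fitted level was 114-fold that of gill DsRedx. Against intestine GFP the ratio was at least 1980-fold, from a floor of 3 counts over the 3 libraries, which corresponds to 0.0842 CPM. Per length, pou2f3 stood at 156 ± 74.6 TPM (SD, n = 3) in gill GFP, rank 756 of the 14079 genes with a TPM above 0 there.

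PAX1 (ENSDARG00000073814), a paired-box factor of the pharyngeal pouches, had 1177, 721 and 1449 counts in the gill GFP libraries, or 125, 102 and 225 CPM. It had 2, 4 and 3 counts in gill DsRedx and none in the intestine. Its fitted ratio to gill DsRedx was 294-fold, and its ratio to intestine GFP was at least 1730-fold against the same floor.

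PAX9, the second paired-box factor of the pouches, had 437, 329 and 1000 counts in gill GFP, or 46.4, 46.4 and 156 CPM. Gill DsRedx had 4, 5 and 1 counts and the intestine none. Libraries 1 and 2 of gill GFP were alike and library 3 was higher. The fitted ratio to gill DsRedx was 138-fold, and that to intestine GFP at least 914-fold.

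TBX1, the T-box factor of the pharyngeal arches, had no count in any gill GFP or intestine GFP library. Its 15 counts fell as 13 in gill DsRedx 1 and 1 in each of intestine DsRedx 2 and 3. A count of 0 over the 3 gill GFP libraries allows a level of up to 0.131 CPM, by counting error alone.

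GATA3 had 1276, 435 and 1631 counts in gill GFP, or 136, 61.3 and 254 CPM, against 4, 6 and 10 counts in gill DsRedx. In the intestine the only counts were 2 in intestine DsRedx 1. The fitted ratio to gill DsRedx was 139-fold and the ratio to intestine GFP at least 1730-fold. The highest gill GFP library was 4.13-fold the lowest, and the groups did not overlap.

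SOX7 differed from the other 4 in that it was found in both green groups. It had 643, 551 and 2333 counts in gill GFP (68.3, 77.7 and 363 CPM) and 367, 345 and 378 in intestine GFP (31.9, 33.0 and 27.7 CPM). The gill DsRedx libraries had 5 counts each, and intestine DsRedx had 2, 3 and 3. Intestine GFP was even over its libraries, at 30.9 ± 2.79 CPM (SD, n = 3), whereas gill GFP rested largely on library 3, at 170 ± 167 CPM. The fitted ratio was 199-fold between gill GFP and gill DsRedx and 5.49-fold between gill GFP and intestine GFP.

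The intestine comparison of SOX7 does not compare levels in the gill GFP libraries the members were chosen on, so it was tested. Its spread was estimated over all 12 libraries, gill GFP among them, so the test is not fully separate from that choice. SOX7 was higher in intestine GFP than in intestine DsRedx by 6.41 on the log2 scale (SE 1.52), an 84.9-fold ratio, with an adjusted p of 0.0173 in edgeR's quasi-likelihood test, where 4.12% of tested genes were called in either direction and 2.09% as higher in intestine GFP. All 3 intestine GFP libraries lay above all 3 of intestine DsRedx, as they did for 19.4% of tested genes. The call held in 5 of the 12 fits that each left out 1 library. It ended without gill GFP 3 (adjusted p 0.078), without any 1 of the intestine GFP libraries (0.0629 to 0.0666) and without any 1 of the intestine DsRedx libraries (0.0918 to 0.107), while the log2 ratio stayed between 6.06 and 6.51. The other 4 filtered members had no count in intestine GFP.

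EYA1, a phosphatase and transcriptional coactivator, had 0, 7 and 0 counts in gill GFP and none in gill DsRedx. Intestine GFP had 0, 1 and 378 counts and intestine DsRedx 1, 0 and 2, so 378 of its 389 counts came from intestine GFP 3.

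Ordered by mean TPM in gill GFP, pou2f3 came first at 156 ± 74.6, followed by GATA3 at 97.8 ± 55.1, PAX9 at 76.8 ± 49.9, SOX7 at 60.1 ± 53.4 and PAX1 (ENSDARG00000073814) at 60.0 ± 20.4 (SD, n = 3). Each pair of neighbours in this order differed by less than the larger of their SDs. Their ranks among the 14079 genes ran from 756 for pou2f3 to 1817 for PAX1. All 5 were highest in gill GFP 3. Their coefficients of variation over the gill GFP libraries in CPM were 59.0% for pou2f3, 43.6% for PAX1, 64.6% for GATA3, 76.1% for PAX9 and 98.7% for SOX7. The median over the 1880 genes with a mean of 50 to 200 CPM there was 65.4%.

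The few counts in gill DsRedx came to under 1% of the gill GFP level for all 5 members. The gill DsRedx mean was 0.869% of the gill GFP mean for pou2f3, 0.33% for PAX1, 0.708% for GATA3, 0.714% for PAX9 and 0.494% for SOX7. A set of 44 other genes with over 40 CPM in gill GFP and under 0.5 CPM in every intestine library, a criterion set after the data were seen, had a median share of 1.04% (quartiles 0.76 to 1.46%), and 38 of them lay under 2%. Of the 5 members, pou2f3 lay within those quartiles and the other 4 lay below them. For SOX7 in the intestine, the DsRedx mean was 1.13% of the GFP mean. With 1% of the other color's level taken off each library of the same tissue, also chosen after the data were seen, the gill DsRedx counts of all 5 members came to 0. The gill GFP ratios then became at least 1010-fold for pou2f3, 887-fold for PAX1, 885-fold for GATA3, 468-fold for PAX9 and 934-fold for SOX7. Since all 5 shares were already under 1%, these zeros and larger ratios followed from the percentage chosen, and nothing is read from them. The source of this low level was not tested.

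**Figure D2:**
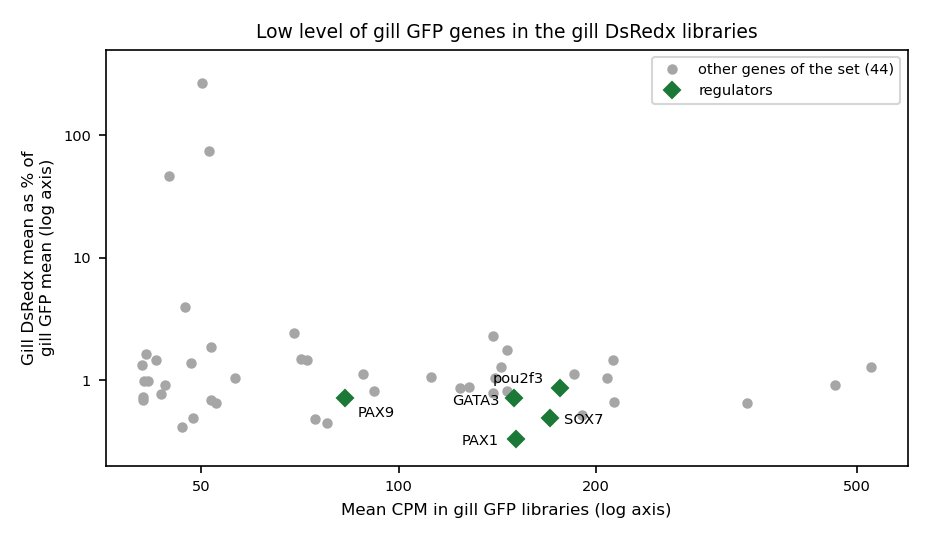
Mean of gill DsRedx as a percentage of the gill GFP mean (log axis) against the gill GFP mean in CPM (log axis), for the 5 filtered members (diamonds) and 44 other genes (grey). The grey genes had over 40 CPM in gill GFP and under 0.5 CPM in every intestine library. The members lie between 0.33% and 0.869%, under the grey points' median of 1.04%, and PAX1 lies below every grey point.

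Between gill DsRedx and intestine DsRedx, pou2f3 had 27 and 0 counts over the 3 libraries of each group, PAX1 (ENSDARG00000073814) 9 and 0, PAX9 10 and 0 and GATA3 20 and 2. These 4 passed the filter through their gill GFP counts, so no test is given for them. SOX7, which intestine GFP also carries past the filter, had 15 and 8 counts and was not called (2.34-fold, adjusted p 0.652 in edgeR's quasi-likelihood test, 0.421 in DESeq2). That comparison called 0.759% of genes, 0.225% as higher and 0.534% as lower in gill DsRedx.

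Lists of other genes of the same pathways were tested in the comparison of gill GFP with the mean of the other 3 groups, in which 7.59% of the 10666 genes were called, 5.56% higher and 2.03% lower, with a median log2 difference of 0.09 over all genes. This mean is taken on the log scale, so a group at or near 0 lowers it strongly. A list gene found almost only in gill GFP passed the filter through that group, so its call is no support beyond its counts. Of 49 further identifiers of pharyngeal endoderm and arch regulators, 13 passed the filter, 3 were called higher and 2 lower, and the median log2 difference was -1.13. The higher genes were the second PAX1 identifier, TFAP2C and HOXB3. PAX1 (ENSDARG00000008203) had 218, 11 and 46 counts in gill GFP and none in the other 9 libraries, a ratio of at least 307-fold. It passed the filter through gill GFP alone, so nothing is read from its call.

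TFAP2C, an AP-2 factor of surface ectoderm and neural crest, had 2402, 1796 and 1161 counts in gill GFP against 5 to 16 in gill DsRedx, and its intestine counts were 1, 0 and 181 in GFP and 0, 0 and 4 in DsRedx. Its pooled level was 81.9-fold that of the other 9 libraries (adjusted p 0.00115, called in all 12 fits). HOXB3, which patterns the posterior arches, had 236, 1 and 156 counts in gill GFP and 13, 37 and 0 in intestine GFP. Its groups overlapped, and its call (adjusted p 0.0235) held in 7 of 12 fits, ending without gill GFP 1 or 3 or any 1 of the intestine GFP libraries (up to 0.0672). HOXB3 passed the filter only with its gill GFP counts, so its call is no support beyond its counts. PRDM1, a repressor with roles in arch development and in lymphoid and myeloid cells, had 3, 1 and 7 counts in gill GFP. Intestine GFP was also low, at 49, 45 and 76, against 356 to 1235 in gill DsRedx and 4905 to 13934 in intestine DsRedx. PRDM1 was called lower in gill GFP (adjusted p 5.42e-05, called in all 12 fits). With 1% of the other color's level taken off its adjusted p was 1.0 in this comparison and 8.97e-05 against gill DsRedx alone. NRP2 (ENSDARG00000038446), a semaphorin and VEGF co-receptor, had 10 counts over gill GFP and 11, 5 and 5 in the intestine GFP libraries. It was also called lower in gill GFP (adjusted p 0.0258). That call held in 7 of 12 fits and ended without any 1 of the gill GFP libraries, gill DsRedx 2 or intestine DsRedx 3 (up to 0.103). The gut endoderm factor gene foxa3 had no count in any gill library and 12420 to 16115 in intestine GFP.

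Eya coactivators act with Dach co-factors and other proteins. Of 18 further identifiers in a list of these genes, 4 passed the filter and 3 were called higher in gill GFP than in the mean of the other groups, with a median log2 difference of 6.91. The EYA1 paralog eya2 had 937, 1406 and 2181 counts in gill GFP against 12, 29 and 14 in gill DsRedx and 5 over the intestine. It was 252-fold the pooled level of the other libraries (adjusted p 7e-05). EYA4, another paralog, had 866, 304 and 728 counts against 2, 5 and 2 in gill DsRedx (adjusted p 0.00247). Both were called in all 12 fits. Both were also found almost only in gill GFP, so their calls are no support beyond their counts. The Dach gene dachc had 402, 322 and 713 counts in gill GFP but also 351, 70 and 3 in intestine GFP. It was called (adjusted p 0.0129) in 11 of 12 fits, the exception being without gill GFP 3 (0.0724). The gene dachc passed the filter only with its gill GFP counts, so its call too is no support beyond its counts.

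Against intestine GFP alone, where 0.703% of genes were called higher and 1.33% lower in gill GFP, eya2 was called (adjusted p 0.0114) and lost the call without gill GFP 3, intestine GFP 1 or intestine GFP 3 (up to 0.0843), and with 1% of the other color's level taken off (0.0999). Against gill DsRedx, edgeR's quasi-likelihood test called 4.59% of all genes and none of the 4 family genes. Of those 4, 3 had an unadjusted p under 0.05 and DESeq2, which called 24.5% of all genes there, called 3.

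**Figure D3:**
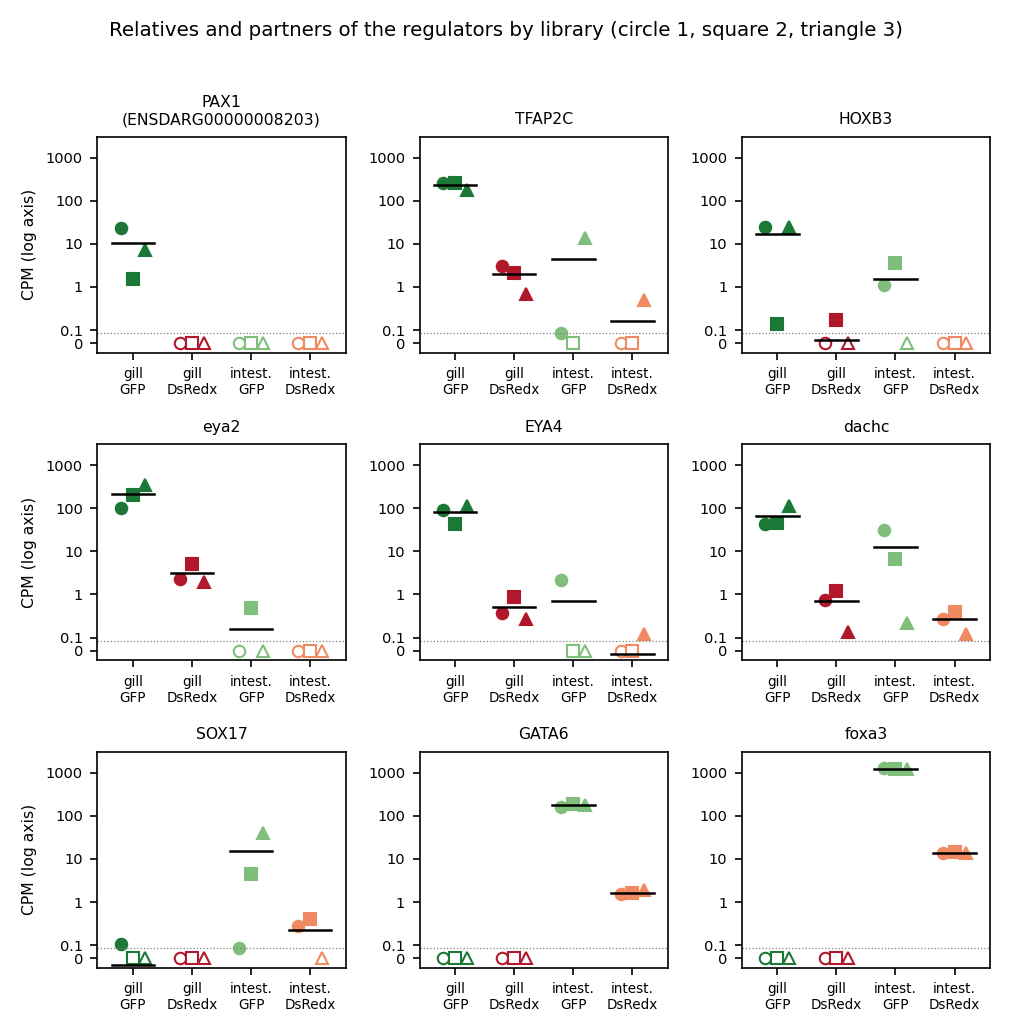
CPM in each library (log axis) of genes related to the members, with group means as black lines and libraries without a count as open symbols below the dotted line. EYA4, eya2 and TFAP2C are high in all 3 gill GFP libraries, whereas GATA6 and foxa3 have no count in the gill and are high in intestine GFP.

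Of 24 identifiers of tuft and chemosensory cell transcription factors beside pou2f3, 8 passed the filter, and 3 were called higher in gill GFP than in the mean of the other groups (median log2 difference 3.79). High counts of these 3 were not confined to gill GFP. GFI1B, a zinc-finger repressor found in mouse tuft cells, had 236, 254 and 1521 counts in gill GFP and 540, 322 and 474 in intestine GFP, against 1 to 13 in the red libraries. ELF3, an Ets factor of epithelia, had 560, 1149 and 861 counts in gill GFP and 9, 904 and 4576 in intestine GFP, against 8 to 16 in the red libraries. The POU factor gene pou2f2b, related to pou2f3 and best known from B cells, had 512, 14 and 1253 counts in gill GFP and 443 in gill DsRedx 3. Their adjusted p-values were 0.00456, 0.0197 and 0.0166. All 3 calls ended without gill GFP 3 (0.163 for GFI1B and 0.151 for pou2f2b), and that of ELF3 also without gill GFP 2 or intestine GFP 2 (up to 0.0797).

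Within a tissue, 4.59% of genes were called between gill GFP and gill DsRedx, 2.29% as higher and 2.31% as lower in gill GFP. GFI1B and RUNX1, a Runt factor of blood formation, were called there (adjusted p 0.0451 and 0.0473), each in only 1 of the 12 fits that left out a library (up to 0.203 and 0.132). RUNX1 had 593, 400 and 845 counts in gill GFP and 528, 422 and 655 in intestine GFP, against 2, 7 and 10 in gill DsRedx. In the intestine GFI1B and ELF3 were called higher in GFP cells (adjusted p 0.0461 and 0.0294), in 3 and 7 of the 12 fits (up to 0.197 and 0.27). With 1% of the other color's level taken off, the call of GFI1B ended (adjusted p 0.0603). No gene of this list was called between gill GFP and intestine GFP, where 2.03% of genes were called in either direction, 1 had an unadjusted p under 0.05 and DESeq2, which called 1092 of the 10666 genes there, called 1. The member pou2f3, by contrast, had no count in intestine GFP.

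Tuft cell effector genes include the channels, enzymes and adaptors these cells signal with. Of 48 identifiers, 22 passed the filter, 3 were called higher and 2 lower in gill GFP than in the mean of the other groups, and the median log2 difference was 0.14 against 0.09 over all genes. The SH2-domain adaptor gene sh2d7, known from mouse tuft cells, had 368, 734 and 12 counts in gill GFP, 6, 4 and 1 in gill DsRedx and none in the intestine (339-fold by pooled counts, adjusted p 0.00278). The calcium-activated cation channel gene trpm4a, a relative of TRPM5, had 954, 743 and 519 counts in gill GFP against 6 to 10 in gill DsRedx and 0, 14 and 322 in intestine GFP (20.5-fold by pooled counts, adjusted p 0.00682). Both were called in all 12 fits, but sh2d7 was found almost only in gill GFP, so its call is no support beyond its counts. LTC4S, the leukotriene C4 synthase, had 223, 149 and 362 counts in gill GFP and 236 in intestine GFP 3 (adjusted p 0.0344). Its call held in 4 of 12 fits and ended without any 1 of the gill GFP libraries, gill DsRedx 2, intestine GFP 1 or 2, or intestine DsRedx 2 or 3 (adjusted p up to 0.112). LTC4S passed the filter only with its gill GFP counts, so its call too is no support beyond its counts.

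VIL1, which bundles actin in brush borders, had no count in gill GFP and 33217 over intestine GFP. It was called lower (adjusted p 0.000212), a call that ended without gill DsRedx 3, the library with gill counts of it (adjusted p 1.0). The receptor gene il13ra1 was also called lower (adjusted p 0.0374), in 5 of 12 fits. It lost the call without any 1 of the gill GFP or intestine GFP libraries or without intestine DsRedx 2 (up to 0.127), and with 1% of the other color's level taken off (0.0928). Against gill DsRedx, 1 of the 22 effectors was called higher, ALOX5 (ENSDARG00000057273), the 5-lipoxygenase that makes leukotriene precursors. It had 956, 227 and 55 counts in gill GFP and 1541, 957 and 1238 in intestine GFP, against 2, 5 and 1 in gill DsRedx (adjusted p 0.0411, held in 3 of 12 fits and 0.148 at most in the others, and 0.065 with 1% of the other color's level taken off).

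The channel gene TRPM5, a defining tuft cell gene, had counts in all groups, 175, 121 and 517 in gill GFP, 351, 873 and 5 in gill DsRedx, 1598, 834 and 811 in intestine GFP and 613, 82 and 628 in intestine DsRedx. The groups overlapped, and it was not called (log2 difference from the mean of the other groups -0.92, SE 1.18, adjusted p 0.718). AVIL, an actin-binding protein of tuft cells, had 698 counts in gill GFP 1 and 2 and 0 in the other 2 gill GFP libraries. PLCB2, gng13a, CHAT and ascl1a had no count in gill GFP. Of these, gng13a, CHAT and ascl1a had none in any library, and PLCB2 had counts only in intestine DsRedx (21, 0 and 15).

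Over the 13 identifiers of tuft and chemosensory markers, pou2f3 included, 7 had a count in gill GFP, 7 in gill DsRedx, 7 in intestine GFP and 6 in intestine DsRedx. The summed level of the 13 ran from 208 to 613 CPM in gill GFP, from 71.3 to 561 in gill DsRedx, from 101 to 196 in intestine GFP and from 11.5 to 258 in intestine DsRedx. Gill GFP thus lay above intestine GFP and overlapped both red groups. The highest gill DsRedx sum, in library 2, was mostly SOX9 (ENSDARG00000003293), at 406 CPM. Without pou2f3, a member chosen for its gill GFP level, the other 12 markers summed to 99.1 to 318 CPM in gill GFP, which overlapped every other group.

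**Figure D4:**
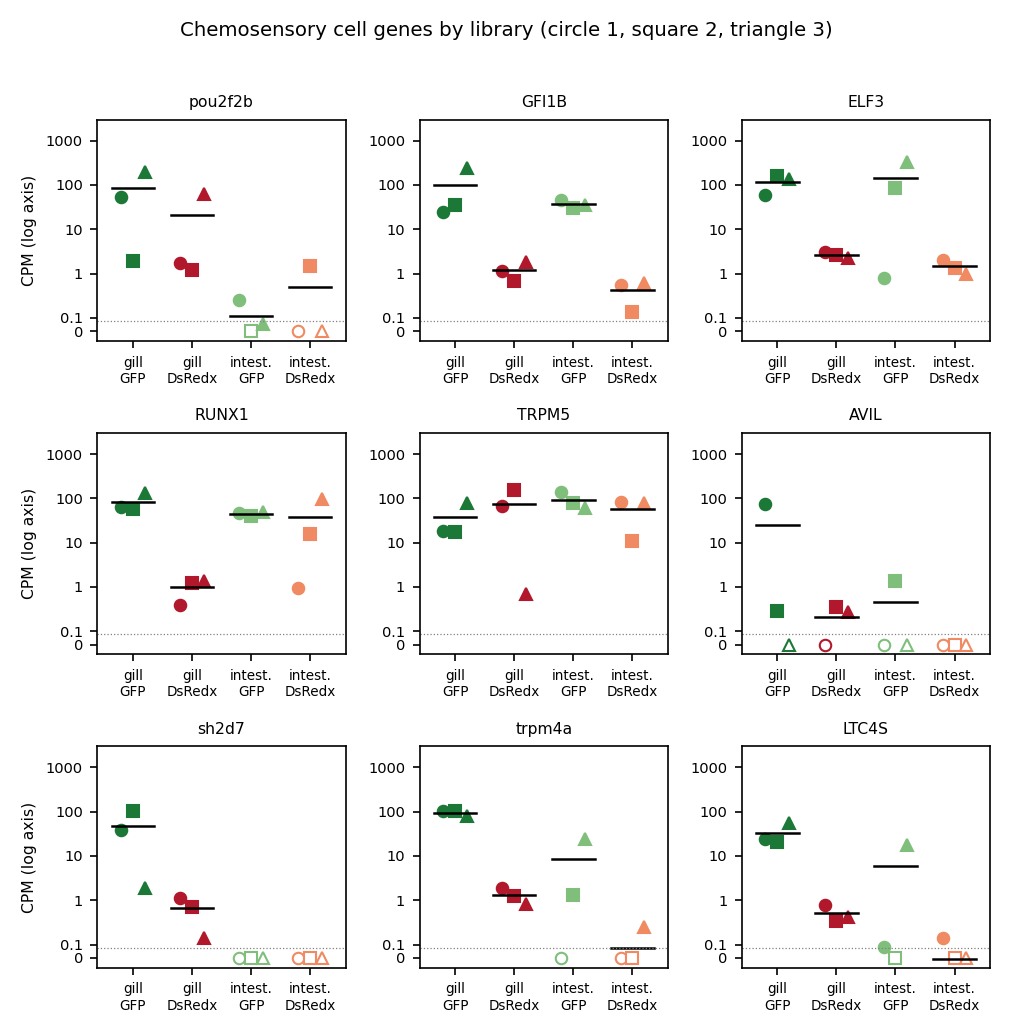
CPM in each library (log axis) of tuft and chemosensory cell genes, with group means as black lines and libraries without a count as open symbols below the dotted line. GFI1B is high in both GFP groups, TRPM5 is found in all 4 groups, and AVIL is high in 1 gill GFP library only.

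No other GATA gene had more than 2 counts in a gill GFP library, and the highest in gill DsRedx was gata1b, a blood factor, with 2, 2 and 11 counts. Of 10 further identifiers of the GATA genes and their co-factors, 8 had no count in gill GFP and 8 had none in gill DsRedx. GATA6, a factor of gut endoderm, had none in the gill and 1883, 1977 and 2422 in intestine GFP, against 11, 12 and 15 in intestine DsRedx. It was called lower in gill GFP than in intestine GFP (at least 1350-fold, adjusted p 0.00365, called in all 12 fits). It was also called higher in intestine GFP than in intestine DsRedx (106-fold, adjusted p 0.033), in the 6 of 12 fits that kept all intestine libraries (up to 0.2). GATA5, another gut factor, had 354, 93 and 495 counts in intestine GFP and none in the gill.

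Because GATA3 marks T cells and type 2 innate lymphoid cells, 12 markers of those cells were summed beside it. The sum was 0.425 to 1.27 CPM in gill GFP, 1.53 to 262 in gill DsRedx, 0.521 to 1.03 in intestine GFP and 31.3 to 379 in intestine DsRedx. In gill GFP 6 of the 12 were at 0, among them ZAP70, il7r, il4 and il13, and lck had 0, 2 and 3 counts. These zeros were not particular to gill GFP, since 8 were at 0 in gill DsRedx, 10 in intestine GFP and 8 in intestine DsRedx. ZAP70 and il4 had no count in any library, and il7r and il13 none in gill DsRedx. Of the wider list of 34 identifiers, 17 had a count in gill GFP, 16 in gill DsRedx, 15 in intestine GFP and 17 in intestine DsRedx. Among the 17 of gill GFP, IKZF1, a lymphoid factor, had 1166, 621 and 13 counts there against 8, 7 and 5 in gill DsRedx. The T cell adaptor gene skap1 had 543, 315 and 245 against 9, 3 and 1036, and neither was called. Both were also found in intestine GFP, with 800, 373 and 1434 counts of IKZF1 and 1949, 971 and 936 of skap1. Gill DsRedx 3, with 1348 counts of lck and 411 of cd8a, had 10 counts of GATA3. RUNX3, a Runt factor of lymphocytes and macrophages, had 831, 1081 and 91 counts in gill GFP and 364, 369 and 878 in intestine GFP. The red libraries had 6935 to 17318. RUNX3 was called lower in gill GFP than in the mean of the other groups (log2 difference -2.52, adjusted p 0.0178). That call held in 10 of 12 fits and ended without gill GFP 1 or 3 (up to 0.0598) and with 1% of the other color's level taken off (0.147). CCR9 (ENSDARG00000055186), a chemokine receptor, was called higher than in intestine GFP (3.33-fold, adjusted p 0.0465). The CCR9 call held in 7 of 12 fits and ended without gill GFP 2 or 3 or any 1 of the intestine GFP libraries (up to 0.202), in DESeq2 (0.085) and with 1% of the other color's level taken off (0.0799).

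For SOX7, markers of blood vessel endothelium were looked at after its values had been seen. Of 12 identifiers, 10 were at 0 in gill GFP, kdrl and cdh5 among them, and 10 were at 0 in gill DsRedx. In intestine GFP 4 were at 0 and in intestine DsRedx 5. The summed level in gill GFP was 0 to 7.46 CPM, the highest value coming from 48 counts of tek in gill GFP 3. In intestine GFP the sum was 0.608 to 37.6 CPM, with cdh5 and kdrl again at 0 and with 149 counts of sox18 and 102 of plvapb in library 2. SOX7 itself had similar counts in all 3 intestine GFP libraries.

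Among other epithelial cell types, 8 ionocyte marker names (10 identifiers) summed to 3.38 to 41.4 CPM in gill GFP and to 0.174 to 4.55 CPM in gill DsRedx. Of 31 identifiers of the wider ionocyte list, 9 were tested against the mean of the other groups. Of these, 1 was called higher and 1 lower in gill GFP. TRPV6, a calcium channel gene of ionocytes, had 14, 14 and 50 counts in gill GFP and none elsewhere (at least 87.0-fold). It passed the filter through gill GFP alone, so nothing is read from its call. In contrast, ca2 had 3, 1 and 0 counts in gill GFP and 6, 6 and 10 in intestine GFP. Its counts were 307, 1304 and 24 in gill DsRedx and 968, 1649 and 692 in intestine DsRedx. The gene foxi3a had 209 counts in gill GFP 3 against 1 and 2 in the other libraries of that group. The 10 keratinocyte and pavement cell markers summed to 1540 to 3380 CPM in gill GFP and 4510 to 4860 in intestine GFP, above the 49.8 to 207 CPM of the red libraries. Most of the gill GFP sum was icn, an S100 protein gene, and the other 9 markers summed to 145 to 233 CPM there, 1440 to 1700 in intestine GFP and 2.78 to 33.0 in the red libraries. Nearly all of that intestine GFP sum was the keratin gene krt4, at 1430 to 1690 CPM. Of 14 tested genes of the wider list, 5 were called higher in gill GFP than in the mean of the other groups. They included krt5, a basal keratin (1403, 12 and 366 counts, adjusted p 0.00169), evpla, an envoplakin (515, 643 and 537 counts, adjusted p 0.00658), and cldnb, a claudin (14333 to 19447 counts, adjusted p 1.8e-05). Fits that left out a library called 4 to 6 genes of this list higher. Gill GFP 2 overlapped gill DsRedx for krt5 (1.69 CPM against 2.29 CPM in gill DsRedx 1), and cldnb also had 13004 counts in intestine GFP 3. High counts of krt5 were found only in gill GFP. The gene evpla had 47, 4 and 71 counts in gill DsRedx and 0, 0 and 14 in intestine GFP. It passed the filter only with its gill GFP counts. The calls of krt5 and evpla are therefore no support beyond their counts. The 8 neuroepithelial and Merkel-like identifiers summed to at most 1.97 CPM in gill GFP. Whether any of these cells contributed to the members' levels was not tested.

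The genes whose pattern over the 12 libraries was most like each member's were found by Pearson correlation of log2 CPM. The other members, genes without a symbol and genes with a clone name were left out of this ranking. Pairs of members can therefore correlate more highly than the genes listed, as GATA3 and pou2f3 did at 0.988. The values are a description because the libraries fall into 4 groups and any gene high in the same group scores high. For pou2f3 these were OXGR1 (ENSDARG00000033684) at 0.997, il17rel at 0.997 and SH3BP4 (ENSDARG00000020000) at 0.996. For PAX1 (ENSDARG00000073814) they were selenow2b at 0.995, il17rel at 0.993 and SH3BP4 at 0.992. For GATA3 they were ushbp1 at 0.989, slc2a3a at 0.987 and il17rel at 0.987, and for PAX9 selenow2b at 0.999, SH3BP4 at 0.996 and FAR2 at 0.996. The genes il17rel, SH3BP4 and selenow2b recur in these lists. OXGR1, a receptor gene for oxoglutarate, had 2585, 1920 and 3061 counts in gill GFP, 13, 13 and 14 in gill DsRedx and 1 in the whole intestine, and il17rel, an interleukin 17 receptor-like gene, had 1576, 778 and 1027, then 5, 11 and 5, and none in the intestine.

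SOX7 kept other company. Its nearest genes were ildr1a, an immunoglobulin-like receptor gene, at 0.99, the trim gene btr02 at 0.989 and the actin-binding protein gene pof1b at 0.988. The gene btr02 had 608, 747 and 953 counts in gill GFP and 473, 469 and 526 in intestine GFP, against 3 to 7 in the red libraries. All 3 were found in both green groups and at low counts in both red groups, as SOX7 was.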

How the data were processed

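The deposited count table holds whole-number reads per Ensembl gene, and the authors also deposited the same libraries as TPM (transcript abundance scaled by gene length). STAR, featureCounts and the danRer11 build are named in the submitters' processing notes, while settings and strandedness are not given here, and levels of paralogs and overlapping genes are uncertain. Names came from the supplied table (29201 of 32520 identifiers).

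Genes were filtered by filterByExpr of edgeR 4.0.16 over 4 groups (10666 kept), scaled by TMM and fitted with 1 mean per group over 12 libraries (8 residual degrees of freedom). Calls were made by the quasi-likelihood F test where the p, adjusted after Benjamini and Hochberg within each contrast across the 10666 genes, was under 0.05. A ratio against a group without counts is a floor of 3 counts over that group. Intervals and floors cover counting error only.

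The members and gene lists were chosen with earlier results of these data known. Named genes were all members, up to 6 called genes per list, and for each filtered member the 3 genes most like it. Other members and genes without a symbol or with a clone name were left out of the last. Alternatives were RLE scaling, no filter, DESeq2 1.42.0, a replicate block, limma 3.58.1 on log2(TPM + 1) or log2(TPM + 0.1), each library left out, and 1% of the other color's level taken off, the last chosen after seeing the data. The fits were also run on simulated data, whose outcome is not given here and from which nothing is read. No sequence is printed, since none was supplied. Of the 8 listed names, 1 is not reported here.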

Additional observations from a re-analysis of the deposited data

How the results depend on the processing

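Between gill GFP and gill DsRedx, the log2 ratios of the 5 filtered members kept their direction under every alternative run. Nothing is read from this direction, because the members were chosen for their level in gill GFP. The ratios ranged, over the fits that left out a library, from 6.25 to 7.12 for pou2f3, 7.81 to 8.5 for PAX1 (ENSDARG00000073814), 6.52 to 7.5 for GATA3, 6.28 to 7.5 for PAX9 and 6.43 to 8.02 for SOX7. limma on log2(TPM + 1) gave smaller values for all 5, PAX1 (5.68) and SOX7 (5.29) among them, since the pseudocount raises low levels. With 1% of the other color's level taken off they rose to between 12.45 and 13.54, fitted against a group without counts. Between gill DsRedx and intestine DsRedx that alternative left SOX7 with 0 counts in both groups and GATA3 with 0 and 2 in place of 20 and 2, so neither direction held.

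The number of genes called depended strongly on the tool. In the order gill GFP against the mean of the other groups, gill GFP against gill DsRedx, gill GFP against intestine GFP, intestine GFP against intestine DsRedx and gill DsRedx against intestine DsRedx, the counts were 810, 490, 217, 439 and 81. DESeq2 called 2079, 2618, 1092, 1876 and 1639. Without the filter the first and last were 1554 and 267. limma on log2(TPM + 1) called 739, 743 and 1147 in the 3 comparisons between the first and the last, and on log2(TPM + 0.1) 762, 775 and 1160, with 153 in the last. RLE scaling called 49 in the last, and 1% of the other color's level taken off left 105 in the third and 5 in the last. The cause of these shifts was not tested. RLE moved the median log2 difference of all genes by 0.25, -0.2 and 0.26 in the last 3 comparisons, and the share of calls that were higher from 49.8% to 39.8% in the second and from 29.6% to 42.9% in the last.

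Leaving out a library gave 494 to 909, 231 to 492, 96 to 273, 181 to 543 and 35 to 83 calls. The replicate block called 578, 347, 218, 385 and 75. Libraries with the same replicate number did not deviate together (correlations of -0.032 to 0.04 over 18 pairs). Wide spread between libraries of few cells could hide a shared source, so this cannot show whether the numbers pair the libraries. With the block, edgeR's adjusted p of some genes named above passed 0.05, those of HOXB3 (0.0714) and pou2f2b (0.0708) against the mean of the other groups, GFI1B (0.101), RUNX1 (0.0684) and ALOX5 (ENSDARG00000057273) (0.0696) against gill DsRedx, and GFI1B (0.0695), ELF3 (0.0782) and GATA6 (0.0555) within the intestine.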

Other observations

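Further genes resembled pou2f3, PAX1 (ENSDARG00000073814), GATA3 and PAX9 in having over 40 CPM in gill GFP and under 0.5 CPM in every intestine library. This criterion was set after the data were seen, and SOX7 does not meet it. It sets no limit in gill DsRedx, where RHOV stood at 268% of its gill GFP mean. The genes are given as values only. They included ushbp1 (190 CPM on average in gill GFP), ANO1, a calcium-activated chloride channel (143 CPM), gjb9b, a connexin (124 CPM), slc2a3a, a glucose transporter (112 CPM), and FZD10, a Wnt receptor (77.7 CPM). The class II antigen presentation genes mhc2dca (140 CPM) and mhc2d8.45b1 (185 CPM) were also among them.

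Intestine GFP 3 held most counts of more than 1 gene otherwise rare in its group, 378 of EYA1, 552 of SOX17 and 236 of LTC4S. In gill GFP, HMX3 had 349 counts in library 1 and 0 and 1 in the others.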
